A study of Mus musculus with 12 samples.

Results

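Cd164, Cenpw, Crybg1, Pkib and Prep lie on mouse chromosome 10, the chromosome of Foxo3, and were chosen by their measured values, because their RNA differed between Foxo3-/- and Foxo3+/- ovaries. They are 5 of the 19057 genes named on the array. All probes carrying their symbols were taken, which gave 11 of 45281 probes. Of these, 7 probes were detected well enough to test, at least 1 for every gene. The genotype values of the 5 genes chose them and are given below as a description without a test. The choice names no limit in size or p.

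The arrays measured total RNA of whole ovaries of FVB/N female mice at 14 days postnatal, in 4 groups of 3 arrays. Group NoTg Foxo3+/- carried no transgene and was heterozygous for the Foxo3 null allele, and Tg Foxo3+/- had that genotype with the transgene. Group NoTg Foxo3-/- was null without the transgene, and Tg Foxo3-/- was null with it. The labels write only Tg and NoTg, and the title of the series describes the protein as a constitutively active Foxo3 in oocytes. The promoter, line and copy number of the transgene and the nature of the null allele are not given in the sources used here. Every group carried at least 1 null allele, so no comparison with a wild-type ovary was made. The labels do not say that the 3 arrays of a group come from separate animals, so the spread between them may be partly technical.

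FOXO3 is a forkhead transcription factor that, in the oocyte, holds primordial follicles at rest. When it is lost, follicles enter growth early, and the ovary at this age holds a different mix of follicle stages. Genes that lie close to a targeted gene are usually inherited together with it. The 5 genes share no pathway. CENPW is a histone-fold protein of the inner kinetochore, PREP is a cytosolic peptidase that cuts short peptides after proline, and PKIB is an inhibitor of protein kinase A, the cAMP-dependent kinase. CD164 is a sialomucin of the cell surface and endosomes known to partner the chemokine receptor CXCR4, and CRYBG1 is a large protein with a beta/gamma crystallin fold, known in human cells as AIM1. Protein kinase A activity keeps mouse oocytes in meiotic arrest, as background to the place of PKIB here.

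The stretches of DNA just before the transcript starts of 4 of the 5 genes were available from RefSeq, on build GRCm38.p6. They are shown because genes that respond to one factor may share short motifs in such a window. Each is the 250 bases before a start, 5′ to 3′ on the gene's own strand. Capitals mark any match, on either strand, to the forkhead core TGTTTAC, the E-box CACGTG, the cAMP response element TGACGTCA or the CCAAT box CCAAT, and no 2 matches overlap. The Cd164 window is chr10:41519250-41519499 (plus strand), that of Cenpw chr10:30200541-30200790 (minus), that of Crybg1 chr10:44148829-44149078 (minus, the furthest upstream of 3 starts) and that of Pkib chr10:57631731-57631980 (plus, the further upstream of 2).
Cd164: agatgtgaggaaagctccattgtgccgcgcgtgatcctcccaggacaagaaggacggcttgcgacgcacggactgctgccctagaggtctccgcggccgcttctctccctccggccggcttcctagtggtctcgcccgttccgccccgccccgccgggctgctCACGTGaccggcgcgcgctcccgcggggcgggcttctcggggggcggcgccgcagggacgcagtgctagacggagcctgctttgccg
Cenpw: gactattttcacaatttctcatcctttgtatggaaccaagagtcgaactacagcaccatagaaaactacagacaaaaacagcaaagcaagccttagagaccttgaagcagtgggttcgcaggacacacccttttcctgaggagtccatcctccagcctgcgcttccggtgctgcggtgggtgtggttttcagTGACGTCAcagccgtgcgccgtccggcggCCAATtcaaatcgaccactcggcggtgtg
Crybg1: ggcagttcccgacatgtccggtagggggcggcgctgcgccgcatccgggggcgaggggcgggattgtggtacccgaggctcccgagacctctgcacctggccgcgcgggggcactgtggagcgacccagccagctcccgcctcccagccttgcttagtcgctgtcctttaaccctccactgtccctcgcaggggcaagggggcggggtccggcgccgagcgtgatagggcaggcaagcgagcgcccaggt
Pkib: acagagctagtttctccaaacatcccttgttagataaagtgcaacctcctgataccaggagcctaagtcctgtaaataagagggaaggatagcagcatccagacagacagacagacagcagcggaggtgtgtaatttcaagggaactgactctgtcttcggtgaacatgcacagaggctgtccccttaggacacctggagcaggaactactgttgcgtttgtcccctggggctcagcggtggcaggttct

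The forkhead core was in 0 of the 7 windows of these genes and in 3.17% of 32851 mouse windows of the same length. Cd164 held 1 E-box, a motif found in 6.02% of all windows. Cenpw held 1 cAMP response element and 1 CCAAT box, found in 1.55% and 33.8% of all windows. The shown windows of Crybg1 and Pkib, and their other 3 windows, held none of the 4 motifs. Base composition differed as well, with G and C making up 71.6% of the Cd164 window and 72.0% of that of Crybg1, against 52.8% for Cenpw, 51.2% for Pkib and a median of 52.4% over all windows. A match is a run of letters and not a bound site.

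Values below are log2 intensities after background correction and quantile normalization. Called means an adjusted p under 0.05 in limma's two-sided test, with the Benjamini-Hochberg adjustment made over the 22511 tested probes. Foxo3 itself was read by 1 testable probe, at 7.81, 7.92 and 8.44 in NoTg Foxo3+/-, 7.89, 7.87 and 8.13 in Tg Foxo3+/-, 8.45, 8.18 and 8.65 in NoTg Foxo3-/- and 8.29, 8.37 and 8.20 in Tg Foxo3-/-. Null exceeded heterozygous means by 0.37 without the transgene (limma adjusted p = 0.317), and those groups overlapped. With the transgene the excess was 0.33 (adjusted p = 0.348), and the 3 null arrays lay just above the 3 heterozygous ones. No source used here places that probe on the null allele or the transgene, so it checks neither label. Its other 2 probes were detected on 1 and 0 arrays.

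Some measures of the ovary as a whole moved with the genotype. The summed intensity of 10 oocyte markers was 61050 to 72647 in the 6 heterozygous arrays and 81309 to 89259 in the 6 null arrays, and 9 of the 10 were detected on all arrays. Bright markers weigh most in such a sum. Of the 10, 2 were called higher in null ovaries in each transgene state. Without and with the transgene 1.11% and 2.59% of all tested genes were called. Lower in null ovaries were 3 of the 10 without the transgene and 2 with it. The sum of 5 stromal markers was 21265 to 25703 against 16563 to 19097. Of these 5, 4 were lower in null ovaries without the transgene and 3 with it. For 6 surface epithelium and bursa markers the sum came to 3388 to 3848 in NoTg Foxo3+/- and 2332 to 2697 in NoTg Foxo3-/-. With the transgene it was 3030 to 3499 and 2462 to 3071, ranges that overlap. The background level of the arrays, in raw intensity, was 76.3 to 79.8 in NoTg Foxo3+/- and 79.9 to 81.2 in NoTg Foxo3-/-, and 65.4 to 67.0 and 68.5 to 74.2 in the Tg groups. The part of cell makeup in the values below was not tested, and in whole ovaries fewer cells of a type and less RNA per cell cannot be told apart. With array background as a covariate the 14 genotype differences of the 7 probes kept their directions.

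Cenpw, Pkib and Prep were higher, and Cd164 and Crybg1 lower, in null than in heterozygous ovaries in both transgene states. The brightest probe of each gene differed by 1.23-fold to 1.69-fold without the transgene and by 1.33-fold to 1.66-fold with it. No array of one genotype overlapped the other in either state for 4 of the 5 genes, the exception being Pkib without the transgene. Over all tested genes 8.09% were apart in the same direction in both states, and 19.6% and 27.3% were apart without and with the transgene. Without the transgene 1 of the 5 genes was called, Crybg1, against 1.11% of all tested genes, and with it 4 of 5 were called, against 2.59%. Because these contrasts picked the genes, nothing is read from these counts.

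**Figure D1:**
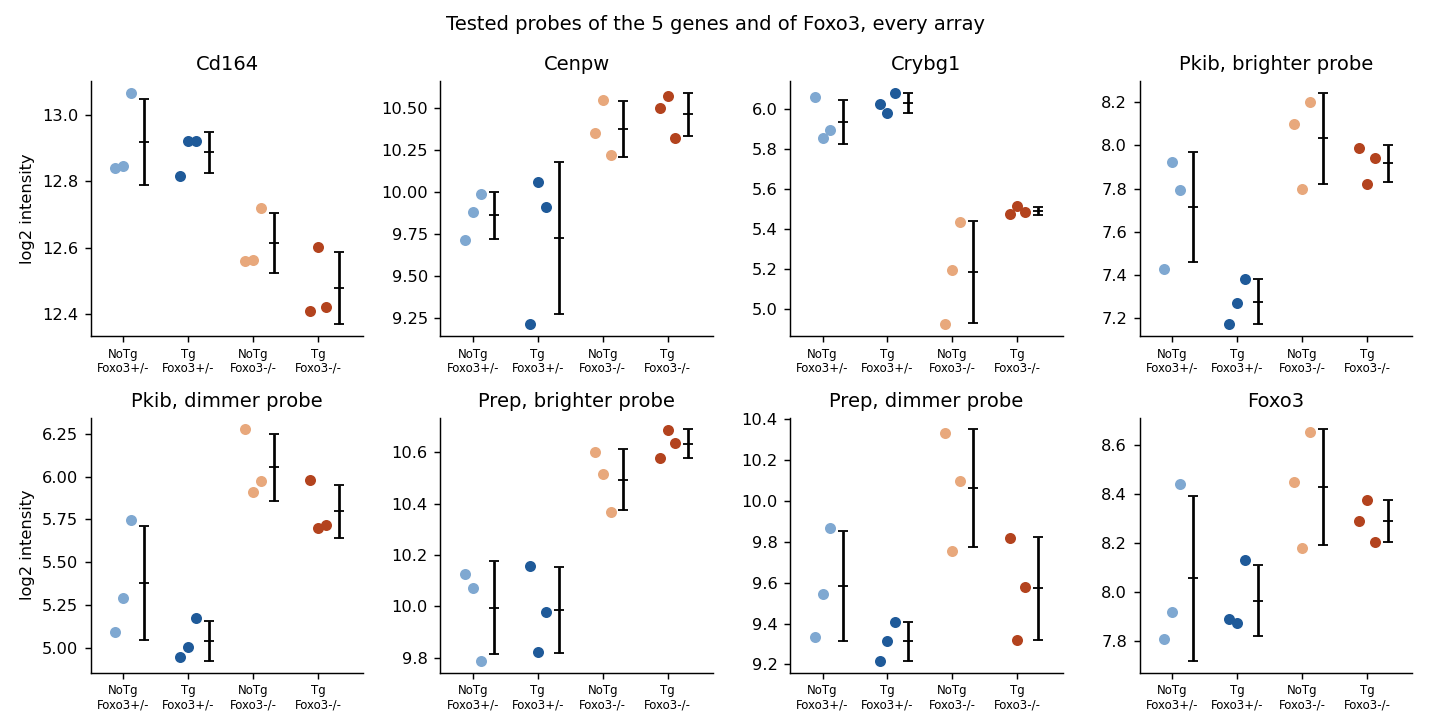
Log2 intensity of the 7 tested probes of the 5 genes and of the tested Foxo3 probe, 1 panel each, by group. Points are single arrays and bars are group means ± SD (n = 3). Within each transgene state the Cenpw, Pkib and Prep probes have a higher mean in the null group and the Cd164 and Crybg1 probes a lower one.

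Cenpw, needed to build the kinetochore on which chromosomes are pulled apart, was read by 1 testable probe (ILMN_2543929). It stood at 9.71, 9.88 and 9.99 in NoTg Foxo3+/- and at 10.35, 10.55 and 10.22 in NoTg Foxo3-/-. In Tg ovaries it stood at 9.21, 10.06 and 9.91 in Foxo3+/- and at 10.50, 10.57 and 10.32 in Foxo3-/-. All 6 null arrays lay above all 6 heterozygous arrays. The low array was replicate 1 of Tg Foxo3+/-, which gave that group an SD of 0.45 around 9.73 where the other groups had SDs of 0.13 to 0.17. Null exceeded heterozygous ovaries by 0.51 ± 0.17 (SE) without the transgene and by 0.73 ± 0.17 with it, which is 1.43-fold and 1.66-fold. Without that array the difference with the transgene was 0.48.

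Prep was read by 2 probes listed against the same RefSeq transcript, and they did not give the same picture. The brighter probe (ILMN_1259561) read 10.12, 10.07 and 9.79 in NoTg Foxo3+/- and 10.60, 10.52 and 10.37 in NoTg Foxo3-/-. It read 10.16, 9.82 and 9.98 in Tg Foxo3+/- and 10.58, 10.69 and 10.64 in Tg Foxo3-/-. All null arrays lay above all heterozygous arrays, and the means differed by 0.50 ± 0.12 (SE) without the transgene and 0.65 ± 0.12 with it. The dimmer probe (ILMN_2973020) read 9.33, 9.55 and 9.87 in NoTg Foxo3+/- and 10.33, 9.76 and 10.10 in NoTg Foxo3-/-. In Tg ovaries this probe read 9.22, 9.31 and 9.41 in Foxo3+/- and 9.82, 9.32 and 9.58 in Foxo3-/-. Its genotype groups overlapped in both states, with differences of 0.48 ± 0.17 and 0.26 ± 0.17. The latter was 0.14 without replicate 1 of Tg Foxo3-/-, 0.14 with array background as a covariate and 0.15 after median scaling.

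Pkib was read by 2 tested probes, listed against different RefSeq transcripts of the gene. The brighter (ILMN_1217389) read 7.43, 7.92 and 7.79 in NoTg Foxo3+/- and 8.10, 7.80 and 8.20 in NoTg Foxo3-/-. The lowest null array lay between the heterozygous ones, so these groups overlapped. With the transgene it read 7.17, 7.27 and 7.38 in Foxo3+/- and 7.99, 7.82 and 7.94 in Foxo3-/-, without overlap. The differences were 0.32 ± 0.15 (SE) and 0.64 ± 0.15, or 1.25-fold and 1.56-fold. The former was 0.17 without replicate 1 of NoTg Foxo3+/- and 0.49 after median scaling.

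The dimmer Pkib probe (ILMN_3094853) read 5.09, 5.29 and 5.75 in NoTg Foxo3+/- and 6.28, 5.91 and 5.97 in NoTg Foxo3-/-. It read 4.94, 5.01 and 5.17 in Tg Foxo3+/- and 5.98, 5.70 and 5.72 in Tg Foxo3-/-. The genotypes were apart within each transgene state, and the means differed by 0.68 ± 0.18 (SE) and 0.76 ± 0.18. This probe lay near the array background, at 82.6 to 153.7 in raw intensity, and its differences were 0.30 and 0.31 without background correction and 0.35 and 0.33 in the authors' normalized values. The other 3 Pkib probes and the other Cenpw probe were detected on 0 arrays, at 64.8 to 99.3 in raw intensity, and carry no level here.

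Cd164 (ILMN_1246611) was the brightest of the 7 probes. It read 12.84, 12.85 and 13.07 in NoTg Foxo3+/- and 12.56, 12.56 and 12.72 in NoTg Foxo3-/-. Tg ovaries read 12.82, 12.92 and 12.92 in Foxo3+/- and 12.41, 12.60 and 12.42 in Foxo3-/-. All 6 null arrays lay below all 6 heterozygous arrays. The differences were small, at -0.30 ± 0.10 (SE) and -0.41 ± 0.10, or 1.23-fold and 1.33-fold. Without the transgene the difference was -0.16 after median scaling and -0.19 in the authors' normalized values.

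Crybg1 (ILMN_2590917) was among the dimmest of the tested probes, at 96.2 to 131.2 in raw intensity. It read 6.06, 5.86 and 5.89 in NoTg Foxo3+/- and 4.92, 5.20 and 5.43 in NoTg Foxo3-/-. With the transgene it read 6.02, 5.98 and 6.08 in Foxo3+/- and 5.48, 5.51 and 5.48 in Foxo3-/-. All 6 null arrays lay below all 6 heterozygous arrays. Null means were lower by 0.75 ± 0.15 (SE) or 1.69-fold without the transgene and by 0.54 ± 0.15 or 1.45-fold with it. The size of the difference moved with the background step. Without background correction the differences were -0.32 and -0.25, and in the authors' normalized values -0.26 and -0.25.

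The agreement of probes of one gene was set out as the root mean square of their difference over the 12 arrays, each probe centred on its own mean. It was 0.205 for the Pkib pair and 0.374 for the Prep pair. The brighter minus the dimmer Prep probe averaged 0.41 in NoTg Foxo3+/-, where it ran from -0.08 to 0.79, and 1.06 in Tg Foxo3-/-, where it ran from 0.76 to 1.37. It averaged 0.67 in Tg Foxo3+/- and 0.43 in NoTg Foxo3-/-. For Pkib the 4 group averages lay between 1.98 and 2.34. The dimmer Prep probe was closer to the brighter (0.206) and the dimmer Pkib probe (0.214) than to the other Prep probe, a likeness across different genes. With the group means removed its distances to those Pkib probes were 0.136 and 0.0877. The distances within Prep and within Pkib were then 0.267 and 0.156.

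**Figure D2:**
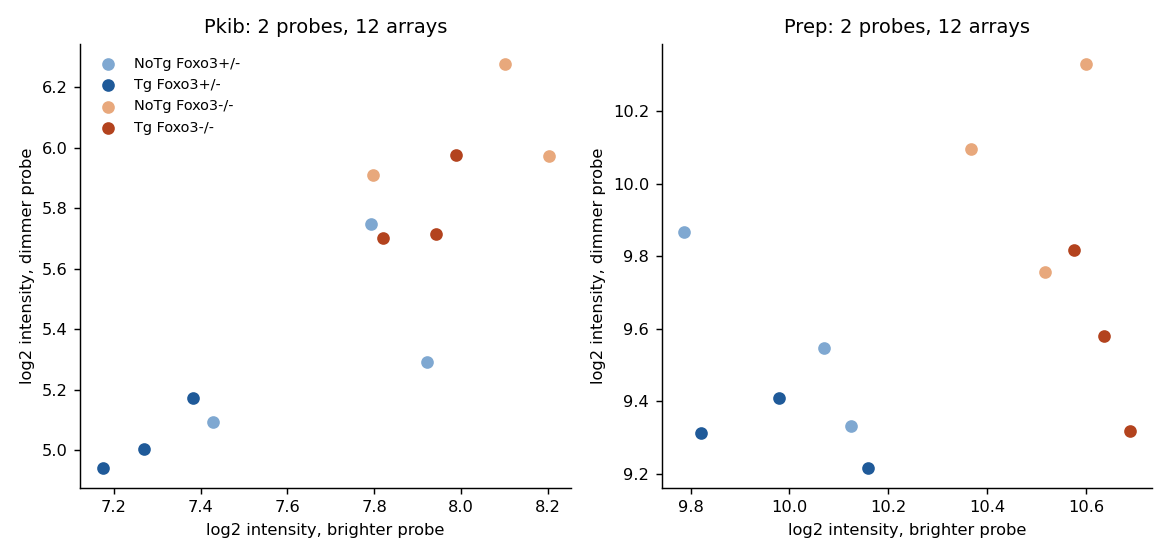
Log2 intensity of the dimmer against the brighter probe of Pkib (left) and Prep (right), each point 1 array, coloured by group. The Pkib probes separate the genotypes along both axes with the transgene, while the dimmer Prep probe overlaps between genotypes in both transgene states.

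The transgene comparisons did not choose these genes, and the effect of the transgene on them was tested. They share their arrays with the genotype contrasts that did choose them, so these tests are not independent of the choice. In limma's test of all probes 0 of the 7 probes were called in Foxo3+/- ovaries, where 0.364% of tested probes were, and 1 of 7 had an unadjusted p under 0.05, against 9.96% of tested probes. In Foxo3-/- ovaries 0 of 7 were called as well, against 0.191%, and again 1 of 7 had an unadjusted p under 0.05, against 10.5%. In Foxo3+/- the brighter Pkib probe differed by -0.44 with the transgene (limma adjusted p = 0.288, 95% interval -0.77 to -0.11), and its 3 transgenic arrays lay below the other 3. The dimmer Pkib probe differed there by -0.34 (adjusted p = 0.562), by -0.15 without replicate 3 of NoTg Foxo3+/- and by -0.13 without background correction. In Foxo3-/- the dimmer Prep probe differed by -0.49 (adjusted p = 0.258, interval -0.84 to -0.14) with overlapping groups, and by -0.21 with array background as a covariate. The brighter Prep probe differed there by 0.14 (adjusted p = 0.763, interval -0.12 to 0.39), by 0.0044 after median scaling and by 0.021 in the authors' normalized values.

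Crybg1 differed by 0.31 with the transgene in Foxo3-/- (limma adjusted p = 0.514, interval -0.02 to 0.63), and its arrays did not overlap. That value was 0.0059 in the authors' normalized values, 0.12 without background correction and 0.18 without replicate 1 of NoTg Foxo3-/-. Groups of this kind were apart for 1 of the 5 genes in each genotype, against 14.0% of all tested genes in Foxo3+/- and 17.7% in Foxo3-/-. Cenpw differed by -0.13 in Foxo3+/- (adjusted p = 0.865, interval -0.50 to 0.23) and 0.09 in Foxo3-/- (adjusted p = 0.920, interval -0.28 to 0.46). Cd164 differed by -0.03 (adjusted p = 0.957, interval -0.24 to 0.17) and -0.14 (adjusted p = 0.689, interval -0.34 to 0.07). The sign or size of several of these values depended on the scaling, the background or single arrays.

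Whether the genotype difference itself changed with the transgene was tested as an interaction, which shares its arrays with the contrasts that chose the genes. In limma's test 0 of the 7 probes were called, 0 had an unadjusted p under 0.05, and the smallest adjusted p was 0.994. Over all tested probes 0 of 22511 were called (0%) and 952 (4.23%) had an unadjusted p under 0.05. The intervals were wide for these sizes. That of the brighter Pkib probe ran from -0.14 to 0.79 around 0.32, and that of Crybg1 from -0.25 to 0.67 around 0.21. In the authors' normalized values these were 0.10 and 0.0021.

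**Figure D3:**
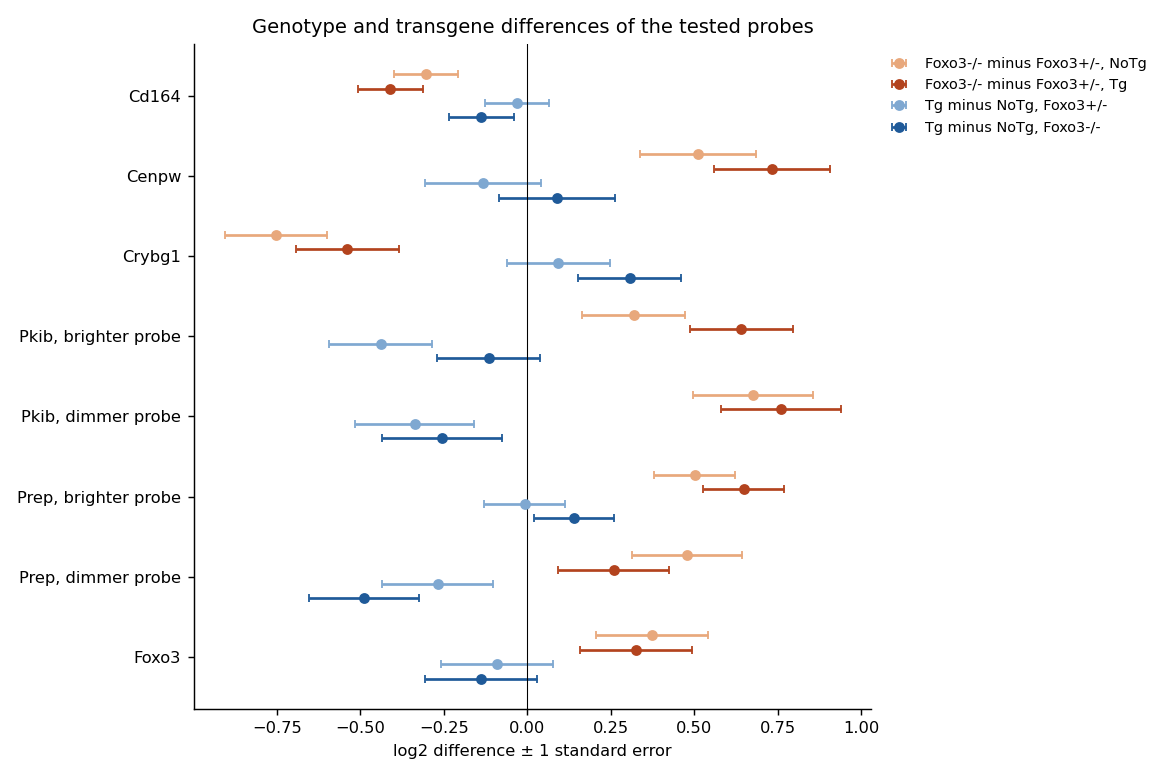
Log2 differences of the 7 tested probes and of the tested Foxo3 probe between null and heterozygous ovaries without and with the transgene, and between transgenic and non-transgenic ovaries of each genotype, with bars of ± 1 standard error. The genotype differences of each probe share a sign in both transgene states. Those of the transgene lie closer to 0 for all but the brighter Pkib and the dimmer Prep probe. The genes other than Foxo3 were chosen by their genotype differences. For them both features follow in part from the choice, and nothing is read from the comparison.

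Along the chromosome the 5 genes are spread on both sides of Foxo3 and are not its immediate neighbours. In the RefSeq order of tested genes Cd164 is 5 places before Foxo3 and Cenpw 38 places before it. Crybg1 is 12, Prep 15 and Pkib 35 places after it. The stretch from Cenpw to Pkib holds 74 tested genes and 114 protein-coding ones, counted separately because some tested genes are not protein-coding. Of the 68 other genes tested there, 0 were called by limma in either genotype comparison, and 10 of the 68 (14.7%) had an unadjusted p under 0.05 in each, against 16.2% of all tested genes without the transgene and 18.9% with it. The ends of this stretch are members, and called neighbours could have been picked as members. The 0 may therefore follow in part from the choice, and nothing is read from it.

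With the members counted in, the stretch had 1 called gene of 74 (1.35%) without the transgene and 4 of 74 (5.41%) with it. Foxo3 and the 20 tested genes nearest on each side had 1 of 41 (2.44%) and 2 called. The whole chromosome, whose bounds do not depend on the choice, had 8 called of 582 tested genes (1.37%) and 15 (2.58%). Those shares were the 4th and 11th highest of 20 chromosomes, which ran from 0.398% to 1.81% without the transgene and from 1% to 3.94% with it. The 68 neighbours had a median difference of -0.08 without the transgene and -0.12 with it, where the median of all tested genes was -0.01 in both.

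The tested genes on either side of each member were read next. Hint3 and Rspo3, on either side of Cenpw, differed by 0.06 and -0.03 without the transgene and by 0.21 and -0.65 with it. Smpd2 and Cep57l1 beside Cd164 differed by -0.01 and 0.10, then by -0.21 and 0.14. Rtn4ip1 and the autophagy gene Atg5 beside Crybg1 differed by -0.15 and -0.14, then by -0.14 and 0.06. Popdc3 and 2310075K07Rik beside Prep differed by 0.02 and -0.28, then by -0.24 and -0.11. None of these was called by limma. Rspo3 and Popdc3 were dim, at mean log2 intensities of 5.10 and 4.86, and were not detected on every array.

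Both neighbours of Pkib had differences of the opposite sign to Pkib, and neither was called. Serinc1 differed by -0.55 in NoTg ovaries (limma adjusted p = 0.213) and by -0.64 in Tg ovaries (adjusted p = 0.113). Smpdl3a, a phosphodiesterase gene, differed by -0.53 (adjusted p = 0.0929) and -0.54 (adjusted p = 0.0628). Beside Foxo3, Afg1l differed by -0.34 and -0.22 and Tdg-ps2 by 0.03 and -0.13. Tdg-ps2 was dim, at a mean log2 intensity of 4.94, and was not detected on every array. Of the 68 neighbours, 5 (7.35%) had genotypes apart in the same direction in both states, beside the 8.09% of all tested genes. They were Marcks, Tube1, Ddo, Fam162b and Gja1, which encodes the connexin that couples granulosa cells. Gja1 differed by -0.25 (adjusted p = 0.282) and -0.38 (adjusted p = 0.0665), and Fam162b by -0.73 (adjusted p = 0.161) and -0.80 (adjusted p = 0.0922). Fam162b was dim, at a mean log2 intensity of 5.38, and was detected on 1 of the 3 NoTg Foxo3-/- arrays.

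**Figure D4:**
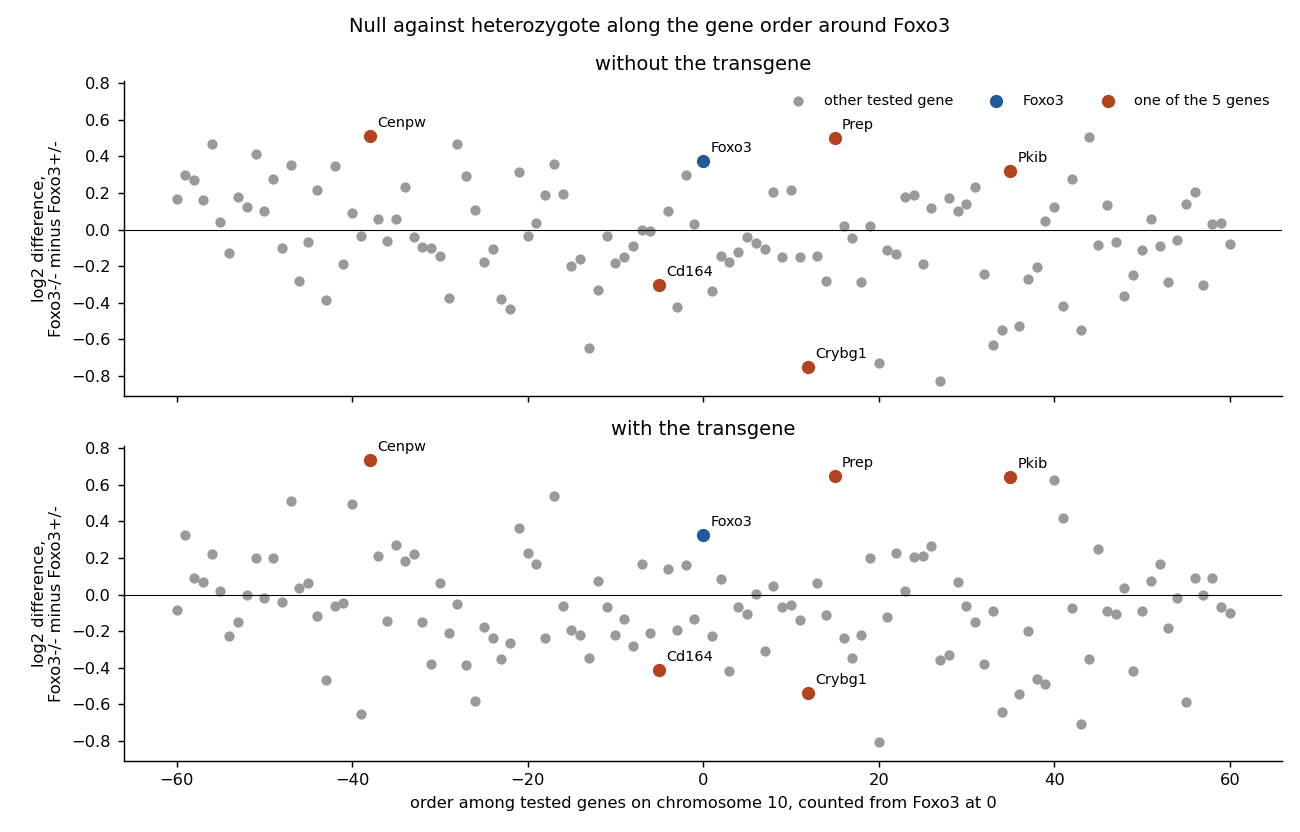
Log2 difference between null and heterozygous ovaries of tested genes on chromosome 10, without (top) and with (bottom) the transgene, by place in the gene order counted from Foxo3 at 0. The other tested genes of the stretch run from -0.83 to 0.47 without and from -0.80 to 0.54 with the transgene. Cenpw and Prep lie above that range in both panels and Pkib in the lower one, while Cd164 and Crybg1 lie within it. The named genes other than Foxo3 were chosen by these differences, and called neighbours could have been picked with them. Their places against the range therefore follow in part from the choice.

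Genes of the same complexes and families, which lie elsewhere in the genome for the most part, were described from lists. Unless said otherwise, the differences are of null from heterozygous ovaries, without and with the transgene. Of 15 genes listed as centromere partners of CENPW, Cenpa among them, 11 were tested. Without the transgene 0 were called by limma, against 1.11% of all tested genes. With it 1 was called, higher in null ovaries, against 2.59% called. That was Cenps, by 0.63 (limma adjusted p = 0.0213), where the difference without the transgene was 0.33 (adjusted p = 0.263). Unadjusted p fell under 0.05 for 4 and 6 of the 11, all in the higher direction, where 16.2% and 18.9% of all tested genes had such a p. The median differences were 0.19 and 0.29 against -0.01 over all genes. Cenpm differed by 0.35 (adjusted p = 0.223) and 0.47 (adjusted p = 0.0713), and Cenpn by 0.33 and 0.29. The higher oocyte marker sum stands beside these values, and its part in them was not tested.

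Of 8 protein kinase A subunits and sister inhibitors of PKIB, all were tested. All had lower means in null than in heterozygous ovaries in both transgene states. Of all 12173 tested genes, 6330 were lower in this way without the transgene and 6373 with it. Without the transgene 0 of the 8 were called, where 1.11% of all tested genes were. With it 1 was called, lower in null ovaries, where 2.59% were called. That was Prkar2b, a regulatory subunit, at -0.29 without and -0.36 with the transgene (limma adjusted p = 0.0407 for the latter). The medians were -0.11 and -0.12. Of 8 relatives of PREP none was called, and Dpp4, a membrane peptidase that also cuts after proline, differed by -0.63 (adjusted p = 0.111) and -0.67 (adjusted p = 0.0650). Apeh differed the other way, by 0.29 (adjusted p = 0.238) and 0.23 (adjusted p = 0.320). The medians of these 8 were -0.06 and -0.08, with 6 and 4 of them lower in null ovaries. Of 8 sialomucins and CXCR4 partners none was called, with medians of -0.12 and -0.21. Cd164l2 had the smallest adjusted p of that list, at -0.05 without and 0.41 with the transgene (adjusted p = 0.0967 for the latter). The latter is opposite in sign to Cd164. Cxcr4 itself differed by -0.03 without and -0.63 with the transgene (adjusted p = 0.142 for the latter). Of 10 genes with a crystallin fold 5 were tested and none was called, and Crybg2 differed by -0.25 and -0.53 (adjusted p = 0.207 for the latter). In the transgene comparisons 0 of the genes of these lists were called, where 0.304% of tested genes were called in Foxo3+/- and 0.164% in Foxo3-/-.

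The tested genes whose array profiles lay nearest to each member were named by the root mean square difference of centred log2 values over the 12 arrays, as a description. They were Ppp1r2 (0.0444), Rnf11 and Ccdc80 for Cd164, and Cox17 (0.137), Ndufaf8 and Sapcd1 for Cenpw. For Crybg1 they were Trpc7 (0.128), Dtx3l and Ct55, for Pkib 2700062C07Rik (0.134), Omt2b and Mslnl, and for Prep Slc6a9 (0.0957), Mms22l and Cd177. Of the 15, 0 lie on chromosome 10, which holds 4.78% of tested genes. Foxo3 ranked 118th of 12172 genes by likeness to Pkib and 712th to Cenpw. It ranked 3221st to Prep, 10143rd to Cd164 and 11281st to Crybg1, the 2 members that were lower in null ovaries. The Foxo3 probe had higher means in null ovaries, and these distances include the genotype differences that chose the members. The ranks therefore follow in part from the choice.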

How the data were processed

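Per the labels' protocols, total RNA was amplified to biotin-labelled cRNA. The deposited raw intensity table holds a linear value for each probe and array, and per the file headers a detection p-value for each, which moves in steps of 0.00107. A normalized intensity table by the authors served as an alternative; no source used here gives its method. Of the probes, 34885 have 1 symbol in the annotation table, 18 have several and 10378 none; 34807 were matched to RefSeq (GRCm38.p6), used for names, gene order and promoters. Table columns without a sample numbered 0.

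With limma 3.58.1 in R 4.3.3, raw intensities were background-corrected (normexp from detection p-values, offset 16), quantile normalized and taken to log2. Testing took the 22511 probes detected (p under 0.05) on 3 or more arrays; a gene's brightest probe stood for it (12173 genes). A model of 4 group means (lmFit, eBayes with trend) used all 12 arrays and was tested on simulated data. Each array had 20072 to 22015 probes detected, and the number of arrays limits precision. Chip and hybridisation day are unknown.

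The members and lists were chosen with earlier results of these data known. Named genes are the members, Foxo3, the nearest tested gene on either side of each, called neighbours, 3 nearest profiles a member and up to 4 genes a list by smallest p; the neighbours apart in both states were named after their values were seen. The alternatives left out the background correction, scaled by medians, took the authors' values, dropped the filter or made it stricter (detection p under 0.01, 6 arrays or more), added a replicate block, added array background as a covariate, and left out each array in turn.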

Additional observations from a re-analysis of the deposited data

How the results depend on the processing

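The 14 genotype differences of the 7 member probes were reversed under none of the 19 alternatives. This says little of their stability, since the direction chose the genes, and the filters and the replicate block do not move these differences. The 21 transgene and interaction values of those probes were called under none of the alternatives, and 23 of 399 values were reversed. The largest reported values among those reversed were -0.27 for the dimmer Prep probe in Foxo3+/- and 0.22 for the Cenpw interaction, and the cause was not tested. Median scaling gave, for the transgene effect in Foxo3+/-, 0.054 for Cd164, 0.019 for Cenpw and 0.15 for the brighter Prep probe, -0.048 for Cenpw in Foxo3-/-, and interactions of -0.067 for Cenpw, -0.085 for the dimmer Pkib and -0.15 for the brighter Prep probe. Median scaling itself moved the median of all probes by 0.13, -0.10 and -0.23 in these 3 comparisons. The authors' values gave 0.0021 for Cd164 and 0.059 for the brighter Prep probe in Foxo3+/-, -0.029 for Cenpw in Foxo3-/-, and interactions of -0.013 for the dimmer Pkib and -0.038 for the brighter Prep probe. With the background covariate the transgene effect in Foxo3+/- was 0.020 for the brighter and 0.055 for the dimmer Prep probe. The covariate also moved the Cd164 transgene values from -0.03 and -0.14 to -0.32 and -0.38, neither called. With arrays left out, it ranged from -0.070 to 0.043 for Cd164, from -0.30 to 0.13 for Cenpw and from -0.11 to 0.075 for the brighter Prep probe, and the interaction from -0.036 to 0.39 for Cenpw and from -0.10 to 0.23 for the dimmer Pkib probe.

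Counts over all probes depended more on the processing. The transgene effect called 82 probes in Foxo3+/-, but 0 under median scaling, the authors' values or the background covariate, 24 with no filter and 0 to 127 with 1 array left out. In Foxo3-/- it called 43, but 0 under median scaling or the covariate, 366 in the authors' values, 22 with no filter, 80 with the stricter filter and 0 to 193 with 1 array left out, where 3 of the 12 arrays in turn took each count to 0. Null against heterozygous ovaries gave 205 called probes without the transgene, but 62 under median scaling, 90 with no filter, 16 with the covariate and 35 to 343 with 1 array left out, the ends being replicate 2 of NoTg Foxo3+/- and replicate 1 of Tg Foxo3+/-. With the transgene it gave 491, but under the same settings 54, 283, 17 and 124 to 765 (the ends being replicate 1 of Tg Foxo3-/- and replicate 2 of NoTg Foxo3-/-), and 224 in the authors' values. The split of higher and lower calls moved with the scaling, from 90 and 115 to 52 and 10 without the transgene under median scaling, and to 169 and 19 in the authors' values. The covariate is tied to the groups. Null arrays had the higher background within each transgene state. It was also tied to the transgene, since all NoTg arrays (76.3 to 81.2) lay above all Tg arrays (65.4 to 74.2). The interaction called 0 probes under every alternative run, with 952 at an unadjusted p under 0.05 in the main setting.

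The 68 neighbours had 0 called genes under every alternative without the transgene. With it they had 0 to 2 when 1 array was left out. Frk was called at -0.69 (limma adjusted p = 0.0463) without replicate 1 of Tg Foxo3+/-. Without replicate 2 of NoTg Foxo3-/-, Frk (-0.58, adjusted p = 0.0480) and Serinc1 (-0.64, adjusted p = 0.0359) were called.

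Replicate numbers are shared between groups, but same-numbered arrays did not deviate together (correlations -0.18 to 0.26, median 0.03), so they were not treated as pairs. With the replicate block the counts were 21, 36, 0, 245 and 509 in place of 82, 43, 0, 205 and 491.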
